A study of Homo sapiens with 15 samples.

Results

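Neuronal identity and synaptic genes were followed in HSSYII, a human cell line from synovial sarcoma in which SS18 is fused to SSX1. The set holds 38 genes, given as a list of symbols, out of 25681 genes in the count tables. They comprise neuronal pentraxins, neurotransmitter receptors, neurofilaments and other cytoskeletal proteins, adhesion molecules, vesicle proteins, RNA binding proteins, a secretory granule protein and the progenitor filament nestin. RNA-seq was available for 5 groups of 3 libraries. Cells were treated for 6 hr with 100 nM dBRD9-A, a degrader of the BRD9 protein, or with DMSO. In a second experiment cells were infected with a GFP-tagged lentivirus carrying shSS18-SSX1-1, shSS18-SSX1-2 or the shRenilla control, and were harvested at 96 hr without drug selection. The share of cells that carried the virus is not given in the sources used here. All groups carry the fusion and come from 1 line. No source says that libraries of a group are separate cultures, so the p-values below cover the spread among these libraries only, and that spread may be technical.

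Neurons share a set of structural and secretory genes. Neurofilaments and microtubule-associated proteins shape the axon and dendrites, neuroligins and neurexins bridge the synaptic cleft, and syntaxin, synaptobrevin and synaptotagmin drive vesicle fusion. Neuronal pentraxins are secreted and cluster glutamate receptors at synapses. Outside the nervous system many of these genes are silenced by the repressor REST, which binds a motif called RE1. Synovial sarcoma is a soft tissue tumour in which SS18 is fused to SSX, and the fusion protein enters the BAF chromatin remodelling complex, of which BRD9 is a subunit in some forms.

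The libraries held 18580419 to 27031647 counts with 1 transcript row kept per gene. Levels are given as CPM, counts scaled to library size by TMM within each experiment, so levels set side by side across the experiments rest on separate scalings. Knockdown was visible in the transcripts it targets. SSX1 had 20.8, 20.6 and 18.7 CPM in shSS18-SSX1-1 libraries and 28.5, 28.8 and 27.3 CPM in shSS18-SSX1-2 libraries, against 77.7, 58.4 and 55.0 CPM in shRenilla libraries. SS18, of which the normal allele also gives reads, averaged 111 ± 1.12 CPM in shSS18-SSX1-1 libraries and 122 ± 3.03 CPM in shSS18-SSX1-2 libraries, against 171 ± 11.7 CPM with shRenilla (SD, n = 3 each). Of 5 synovial sarcoma markers, 3 fell with knockdown, the targeted SS18 and SSX1 and the survival gene BCL2 (log2 fold change -0.64), while TLE1 and TWIST1 did not pass. With dBRD9-A, TWIST1 alone passed, at -0.11 on the log2 scale. The summed level of the 5 was 765 to 801 CPM with dBRD9-A and 777 to 824 CPM with DMSO. It was 420 to 428 CPM in shSS18-SSX1-1 libraries and 443 to 456 CPM in shSS18-SSX1-2 libraries, against 534 to 560 CPM with shRenilla. This sum includes SS18 and SSX1, the targets of the hairpins, so its fall with knockdown is no separate result about the markers. dBRD9-A acts on the BRD9 protein, so no transcript level checks that label. Among shRenilla libraries, replicate 1 stood apart. The chi-square per degree of freedom was 36.5 against replicate 2 and 27.0 against replicate 3, and no other pair within a group exceeded 9.85.

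Promoter sequences are shown for 4 members to place them beside the values below. NTSR1 and INA carried opposite responses to knockdown, while GRIA2 and SYN1 were the other members whose windows held an arm of the RE1 motif. The windows are RefSeq sequences on GRCh38.p14, from 250 bases before to 50 bases after the start of the gene, printed 5′ to 3′ on the strand of the gene, and the counts themselves were made on GRCh37. Capitals mark, on either strand, the left arm TTCAGCACC or right arm GGACAGCGC of RE1, the cyclic AMP response element TGACGTCA, the GC box GGGCGG and the E-box CAGCTG.
NTSR1, chr20:62708586-62708885, plus strand: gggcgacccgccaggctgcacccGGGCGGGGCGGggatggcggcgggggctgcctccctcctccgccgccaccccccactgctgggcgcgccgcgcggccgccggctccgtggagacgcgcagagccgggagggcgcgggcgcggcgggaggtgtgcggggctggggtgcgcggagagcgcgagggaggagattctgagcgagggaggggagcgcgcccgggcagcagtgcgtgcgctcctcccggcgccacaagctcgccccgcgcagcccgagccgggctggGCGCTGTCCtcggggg
INA, chr10:103276888-103277187, plus strand: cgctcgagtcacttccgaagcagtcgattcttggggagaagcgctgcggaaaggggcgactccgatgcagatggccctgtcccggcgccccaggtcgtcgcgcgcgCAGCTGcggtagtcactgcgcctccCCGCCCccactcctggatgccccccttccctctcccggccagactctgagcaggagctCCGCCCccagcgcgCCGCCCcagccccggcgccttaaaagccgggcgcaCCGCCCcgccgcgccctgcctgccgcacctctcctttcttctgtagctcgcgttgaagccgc
GRIA2, chr4:157220369-157220668, plus strand: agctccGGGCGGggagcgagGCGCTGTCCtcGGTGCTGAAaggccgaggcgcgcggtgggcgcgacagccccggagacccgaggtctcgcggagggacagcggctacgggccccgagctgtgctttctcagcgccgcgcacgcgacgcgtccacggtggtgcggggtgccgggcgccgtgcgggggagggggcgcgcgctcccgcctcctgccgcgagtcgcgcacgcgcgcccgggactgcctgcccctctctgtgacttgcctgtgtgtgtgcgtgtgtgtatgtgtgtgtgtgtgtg
SYN1, chrX:47619808-47620107, minus strand: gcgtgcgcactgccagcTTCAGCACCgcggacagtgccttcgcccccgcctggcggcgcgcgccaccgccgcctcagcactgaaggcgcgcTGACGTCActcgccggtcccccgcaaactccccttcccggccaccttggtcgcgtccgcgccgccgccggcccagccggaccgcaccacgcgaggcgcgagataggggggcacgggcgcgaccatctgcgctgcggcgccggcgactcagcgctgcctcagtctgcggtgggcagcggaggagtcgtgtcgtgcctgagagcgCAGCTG

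A window was found for 27 of the 38 members, 55 windows in all. As exact matches, the GRIA2 window held both RE1 arms side by side, NTSR1 the right arm and SYN1 the left arm. Arms with a changed letter were not searched, and the NTSR1 window ends shortly after its arm. Over all 35116 windows of the table, 0.376% held the left arm and 0.581% the right arm. The GC box was present in 26 of the 55 member windows (47.3%) and in 45% of all windows, and the E-box in 11 member windows (20%) and in 17.9% of all windows. These matches are a description of the letters and not of binding. The GRIA2 transcript was at 0 counts in all 15 libraries, NTSR1 was among the well measured members and SYN1 was near the detection limit.

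HSSYII libraries held ample counts for part of the neuronal set and few or none for another part under every condition. Of the 38 members, 18 had enough counts to be tested in both experiments, NRXN2 was tested in the knockdown experiment alone, and 19 were tested in neither. Of those 19, GAP43, NRXN3, GRIA1 and GRIA2 had 0 counts in all libraries, which allows a level of up to 0.00883 CPM (3 counts of 339690267, counting error only). EHMT2, a widely expressed chromatin gene, was also at 0 in all 15 libraries, so a 0 in these tables need not mean that a gene was silent. A further 7 members had 2 to 7 counts in the 15 libraries together. They were GRIK2 (kainate receptor), STMN2 (growth), DCX (migration), SYT1 and SNAP25 (vesicle fusion), and ELAVL2 and ELAVL4 (RNA binding). The defining neuronal genes SYT1, SNAP25, STMN2 and ELAVL4 were therefore at or near 0 also where other members were high. The other 8 untested members, NEFL, NEFM, MAPT, NLGN1, CNTN1, NRCAM, SYN1 and CHGA, had 19 to 121 counts in all.

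**Figure D1:**
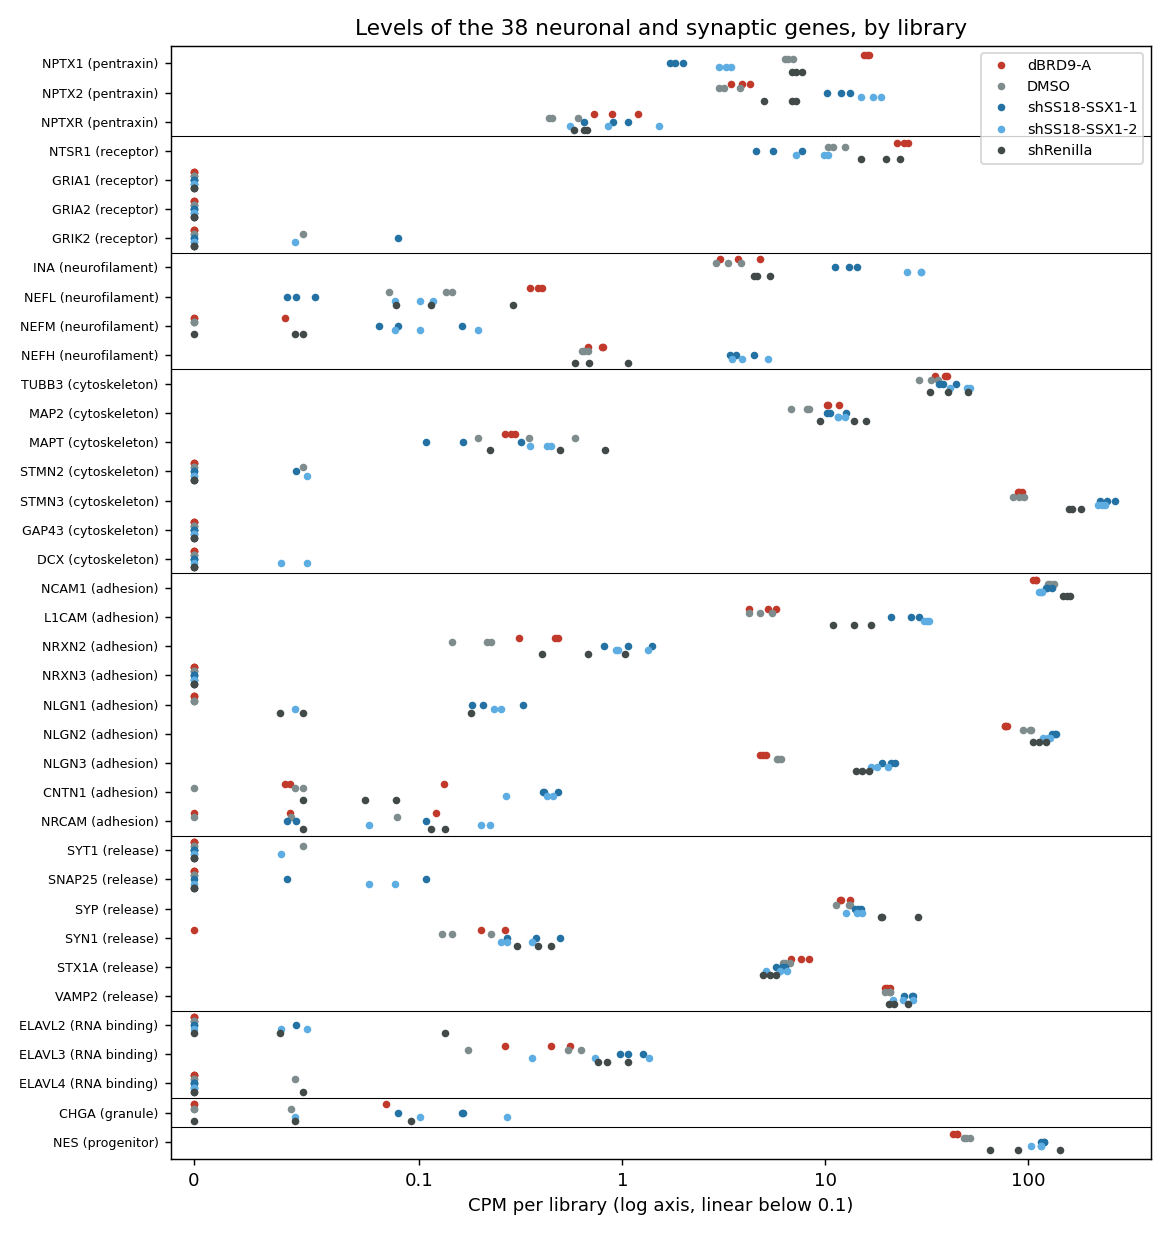
CPM of the 38 genes in each of the 15 libraries, on an axis that is logarithmic above 0.1 and linear below, grouped by role, with colours for the 5 groups. GAP43, NRXN3, GRIA1 and GRIA2 lie at 0 in every library, while STMN3, NCAM1, NLGN2 and NES lie near or above 50 CPM in most.

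Per kilobase of the canonical transcript, and averaged over the 5 groups, the highest level was that of STMN3, a tubulin-binding stathmin, at 73.4 CPM per kb. TUBB3, a neuronal beta-tubulin, followed at 23.3 CPM per kb, with the adhesion genes NLGN2 at 22.1 and NCAM1 at 21.7 CPM per kb. The order of these 3 changed between groups. A readthrough gene on the same strand covers 1584 of the 1706 bases of the TUBB3 transcript, and reads of the 2 cannot be told apart. NES stood at 15.2, the synaptobrevin gene VAMP2 at 10.7 and the synaptophysin gene SYP at 6.24 CPM per kb. NTSR1, NLGN3, INA, L1CAM, NPTX2 and STX1A lay between 3.37 and 2.97 CPM per kb, and NPTX1 at 1.28 and MAP2 at 1.13 CPM per kb. The highest level among the members tested in neither experiment was 0.0857 CPM per kb, that of SYN1. STMN3 is represented by a noncoding transcript row, since its rows held nearly equal counts.

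The 2 controls themselves differed in several members, in time and in delivery, and no test was made between them. NES averaged 49.7 CPM with DMSO and 99.2 CPM with shRenilla. L1CAM averaged 4.82 CPM with DMSO and 13.9 CPM with shRenilla, and NLGN3 averaged 5.91 CPM with DMSO and 15.3 CPM with shRenilla. NPTX1 was at 6.60 CPM with DMSO and 7.25 CPM with shRenilla. Effects below are therefore given against each experiment's own control.

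After 6 hr of dBRD9-A, 5 members rose and 3 fell out of 18 tested (edgeR quasi-likelihood test, adjusted p under 0.05 over all genes). Of all 13652 genes tested, 17.7% rose and 18.2% fell (35.9% together). The members past a fold of 1.5 were 3, each a rise, beside 2.23% of all genes that rose and 0.593% that fell past that fold (2.83% together). The median log2 fold change was 0.13 over the members tested and 0.01 over all genes tested. TMM scaling places the bulk of genes near 0 in each experiment, so the median over all genes is no separate measurement. The paper, which scaled its RNA-seq to cell number with spike-in controls, reported mainly reduced expression after degradation. The shares here rest on another scaling. The 3 members past 1.5-fold were NPTX1, NTSR1 and NPTXR.

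NPTX1, a secreted pentraxin that gathers glutamate receptors, had 16.0, 16.5 and 15.6 CPM in dBRD9-A libraries, against 6.35, 6.53 and 6.92 CPM in DMSO libraries. The counts behind those levels were 376, 408 and 353 with dBRD9-A, against 141, 151 and 143 with DMSO. The groups were far apart, with an SD of 0.447 CPM with dBRD9-A and 0.294 CPM with DMSO. The log2 fold change was 1.28 (SE 0.0813, 2.43-fold, adjusted p = 1.47e-13 by edgeR). NPTX1 lies on chromosome 17 at 78440634 to 78451643 (GRCh37).

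NTSR1, a receptor for the peptide neurotensin, had 24.3, 25.5 and 22.5 CPM in dBRD9-A libraries, against 10.9, 12.4 and 10.4 CPM in DMSO libraries. Every treated library was well above every control library. The log2 fold change was 1.10 (SE 0.0733, 2.14-fold, adjusted p = 4.96e-13 by edgeR). Among the neurotransmitter receptor genes of the set, which also included GRIA1, GRIA2 and GRIK2, NTSR1 alone had enough counts for a test. The third rise was that of NPTXR, the membrane-bound pentraxin receptor, at a low level of 0.723, 0.888 and 1.19 CPM with dBRD9-A, against 0.450, 0.605 and 0.436 CPM with DMSO. Its log2 fold change was 0.89 (SE 0.306, adjusted p = 0.0226 by edgeR), and the call was lost without dBRD9-A replicate 3, DMSO replicate 1 or DMSO replicate 3, and with DESeq2. The third pentraxin, NPTX2, had a log2 fold change of 0.21 and did not pass (SE 0.137, adjusted p = 0.251 by edgeR).

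The other members that passed moved by less. MAP2, which binds dendritic microtubules, rose by 0.48 on the log2 scale (adjusted p = 0.000137 by edgeR) and TUBB3 by 0.21 (adjusted p = 0.00708), with overlapping groups for TUBB3. Leaving out DMSO replicate 1 reduced the rises to 3, because TUBB3 and NPTXR were lost, and TUBB3 was also lost without dBRD9-A replicate 2. NLGN2, the neuroligin of inhibitory synapses, fell by 0.37 (adjusted p = 2.08e-08), NCAM1, the neural cell adhesion molecule, by 0.26 (adjusted p = 1.56e-06) and NES, the intermediate filament of progenitors, by 0.19 (adjusted p = 0.00185). The neurofilament genes INA and NEFH and the vesicle genes SYP, STX1A and VAMP2 did not pass, with log2 fold changes of 0.21, 0.22, -0.02, 0.24 and -0.02. The same held for STMN3, L1CAM, NLGN3 and ELAVL3, at 0.01, 0.06, -0.26 and -0.06. STX1A (adjusted p = 0.0589 by edgeR) and NLGN3 (adjusted p = 0.0590) missed the threshold narrowly, without overlap between the groups. Of 16 alternatives, STX1A passed under 4 and NLGN3 under 2. In a fit of all 15 libraries with 1 shared spread, the calls of MAP2 (adjusted p = 0.0622 by edgeR), NES (adjusted p = 0.550), TUBB3 and NPTXR were lost. A small shift shared by all genes would escape this scaling. With every value lowered by 0.2, 3 members rose and 7 fell.

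The neurofilament light gene NEFL was under the filter on low counts. It had 9, 10 and 8 counts with dBRD9-A, against 3, 2 and 3 counts with DMSO. All treated libraries were higher, at a ratio of 3.17 per library total (exact 95% interval 1.40 to 8.08, counting error only). NEFL had 10 counts in the 6 hairpin libraries together and 11 in the 3 shRenilla libraries. NRXN2, also under the filter here, had 30 counts with dBRD9-A and 13 with DMSO, without overlap between the groups. Its ratio per library total was 2.17 (exact 95% interval 1.10 to 4.53, counting error only).

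Knockdown of SS18-SSX1 moved more members and by larger folds than dBRD9-A. The same held over all genes tested, of which dBRD9-A moved 35.9% past the test and 2.83% also past 1.5-fold. Over both hairpins together, 7 members rose and 4 fell out of 19 tested. Of all 14269 genes tested, 22.5% rose and 22.1% fell (44.6% together). Past 1.5-fold 4 members rose and 3 fell, beside 12.5% and 5.90% of all genes (18.4% together). The median log2 fold change was 0.19 over the members tested and -0.01 over all genes tested. The rises held the neurofilaments INA and NEFH, the pentraxin NPTX2, the adhesion genes L1CAM, NLGN2 and NLGN3, and STMN3. NPTX1, NTSR1, SYP and NCAM1 fell. In RNA from whole cultures, fewer cells that express a gene and less RNA per cell cannot be told apart. Without shRenilla replicate 1, the library that stood apart, 11 members rose and 5 fell, with NES, NRXN2, VAMP2 and CNTN1 added to the rises and MAP2 to the falls. Past 1.5-fold, 7 then rose and 2 fell.

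INA, which encodes alpha-internexin of the neurofilament, had 13.1, 11.1 and 14.3 CPM in shSS18-SSX1-1 libraries and 29.5, 29.8 and 25.3 CPM in shSS18-SSX1-2 libraries, against 4.60, 4.43 and 5.36 CPM in shRenilla libraries. All 6 knockdown libraries lay above the controls. The log2 fold change over both hairpins was 1.99 (SE 0.117, 3.99-fold, adjusted p = 1.23e-08 by edgeR). INA lies on chromosome 10 at 105036895 to 105050103 (GRCh37) and its canonical transcript of 3251 bases overlaps exons of NT5C2 on the opposite strand by 452 bases. Whether the counting used strand is not stated, and reads of the 2 genes there cannot be told apart.

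NEFH, the neurofilament heavy chain, had 3.61, 3.39 and 4.44 CPM in shSS18-SSX1-1 libraries and 3.89, 5.24 and 3.48 CPM in shSS18-SSX1-2 libraries, against 0.685, 0.582 and 1.06 CPM with shRenilla. This was the largest rise among the members tested, at a log2 fold change of 2.39 (SE 0.225, 5.23-fold, adjusted p = 1.20e-06 by edgeR), and rested on 13 to 22 counts in the control libraries. The groups did not overlap. An antisense transcript overlaps 343 bases of NEFH.

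NPTX2 had 10.2, 11.9 and 13.2 CPM in shSS18-SSX1-1 libraries and 15, 18.8 and 17.1 CPM in shSS18-SSX1-2 libraries, against 7.15, 5.01 and 6.85 CPM with shRenilla. Its log2 fold change was 1.16 (SE 0.134, adjusted p = 9.27e-06 by edgeR), opposite in sign to that of NPTX1. L1CAM, an axonal adhesion molecule, had 26.6, 28.8 and 21.0 CPM in shSS18-SSX1-1 libraries and 31.7, 30.5 and 32.3 CPM in shSS18-SSX1-2 libraries, against 13.9, 11 and 16.8 CPM with shRenilla. The log2 fold change of L1CAM was 1.03 (SE 0.130, adjusted p = 1.99e-05 by edgeR). In neither gene did any knockdown library reach into the control range.

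NPTX1 had 1.81, 1.99 and 1.73 CPM in shSS18-SSX1-1 libraries and 2.99, 3.42 and 3.22 CPM in shSS18-SSX1-2 libraries, against 6.85, 7.70 and 7.19 CPM with shRenilla. It fell by 1.57 on the log2 scale (SE 0.111, adjusted p = 6.38e-08 by edgeR), with the 3 groups separate from each other. NTSR1 had 5.51, 7.64 and 4.56 CPM in shSS18-SSX1-1 libraries and 9.83, 7.14 and 10.3 CPM in shSS18-SSX1-2 libraries, against 23.3, 15 and 19.9 CPM with shRenilla. It fell by 1.42 on the log2 scale (SE 0.163, adjusted p = 8.23e-06 by edgeR).

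SYP, the synaptic vesicle protein synaptophysin, had 14.1, 15 and 14.6 CPM in shSS18-SSX1-1 libraries and 15.1, 12.7 and 14.4 CPM in shSS18-SSX1-2 libraries, against 28.5, 18.8 and 18.9 CPM with shRenilla. The highest value was that of shRenilla replicate 1. The log2 fold change was -0.63 (SE 0.125, adjusted p = 0.000962 by edgeR) and its range when each library was left out, or another setting used, was -0.72 to -0.39. NES also turned on that library, at 144 CPM in shRenilla replicate 1 against 65.0 and 88.9 CPM in the other controls. Its log2 fold change of 0.21 (adjusted p = 0.344 by edgeR) became 0.59 without it.

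The remaining members that passed were STMN3 at a log2 fold change of 0.50 (adjusted p = 7.84e-05 by edgeR), NLGN3 at 0.35 (adjusted p = 0.00757), NLGN2 at 0.19 with overlapping groups (adjusted p = 0.0306) and NCAM1 at -0.37 (adjusted p = 0.00015). The call of NLGN2 was lost without shSS18-SSX1-2 replicate 1, shSS18-SSX1-2 replicate 3 or shRenilla replicate 2, with adjusted p-values by edgeR of up to 0.0747. TUBB3, MAP2, NPTXR, NRXN2, STX1A, VAMP2, ELAVL3 and NES did not pass, with log2 fold changes of -0.17 to 0.58. CNTN1, an axonal contactin, was just under the filter on low counts, with 9, 9 and 10 counts with shSS18-SSX1-1 and 6, 11 and 9 counts with shSS18-SSX1-2, against 2, 2 and 1 counts with shRenilla. Its ratio per library total was 5.64 (exact 95% interval 2.27 to 18.1, counting error only).

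**Figure D2:**
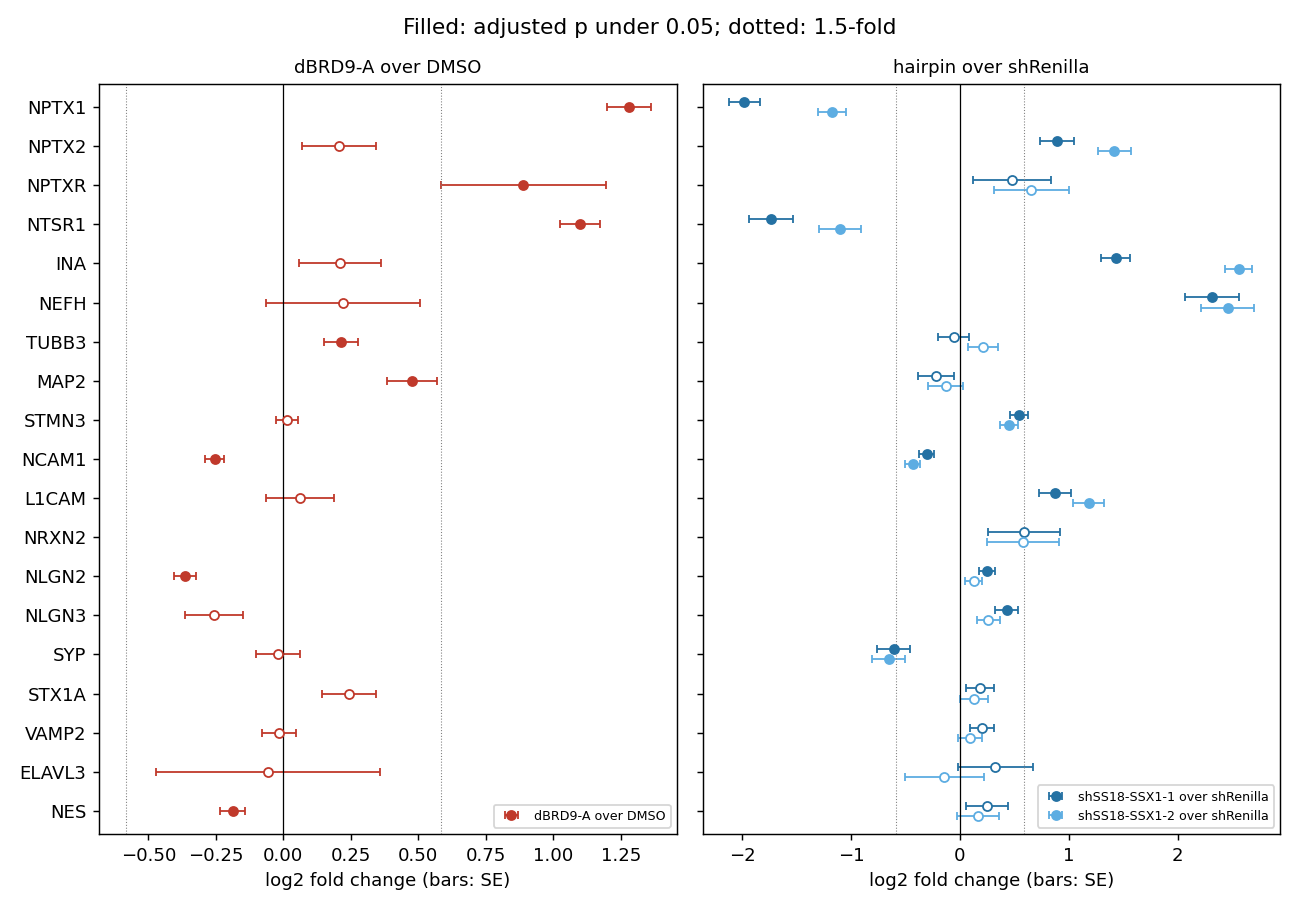
Log2 fold changes with SE of the members, for dBRD9-A over DMSO and for each hairpin over shRenilla, with filled points for an adjusted p under 0.05 and dotted lines at 1.5-fold. NPTX1 and NTSR1 are the 2 members past both 1.5-fold and the test in both panels, with opposite signs.

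Taken singly, shSS18-SSX1-1 moved 11 members past the test, 7 rises and 4 falls, beside 22.0% and 19.5% of all genes (41.5% together). shSS18-SSX1-2 moved 9, 5 rises and 4 falls, beside 18.3% and 15.9% of all genes (34.2% together). Both share the shRenilla libraries. The difference between the hairpins, in which those libraries cancel, passed for INA alone of 19 members, beside 0.147% of all genes, 0.119% in the direction of INA. INA was 2.19-fold higher with shSS18-SSX1-2 than with shSS18-SSX1-1 (log2 difference 1.13, SE 0.115, adjusted p = 0.000783 by edgeR). NPTX1 was also higher with shSS18-SSX1-2, by 0.81 on the log2 scale, and missed the threshold (SE 0.153, adjusted p = 0.0556 by edgeR), though it passed without shRenilla replicate 1 or 2. SSX1 was lower with shSS18-SSX1-1, and whether that bears on these differences was not tested.

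One fit over all 15 libraries tested how far the dBRD9-A effect differed from that of knockdown. Of 20 members tested, 4 had a higher and 7 a lower log2 fold change with dBRD9-A than with knockdown. Of all 14560 genes, 17.5% were higher and 19.0% lower (36.6% together). The higher ones were NPTX1 at 2.83 (adjusted p = 1.90e-11 by edgeR), NTSR1 at 2.50, MAP2 at 0.63 and SYP at 0.59. The difference of MAP2 no longer passed without dBRD9-A replicate 3, DMSO replicate 2 or shRenilla replicate 2 (adjusted p up to 0.0652 by edgeR). The lower ones were NEFH at -2.19 (adjusted p = 0.00019 by edgeR), INA at -1.81, L1CAM at -0.99, NPTX2 at -0.97, NLGN3 at -0.62, NLGN2 at -0.57 and STMN3 at -0.51. Of the members that passed in both experiments, 3 moved in opposite directions, NPTX1, NTSR1 and NLGN2, and NCAM1 fell in both. The log2 difference of NCAM1 between the experiments was 0.09 (SE 0.0704, adjusted p = 0.334 by edgeR). Time, delivery and agent differ between the experiments and cannot be told apart.

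Other neuronal genes, in lists that hold none of the members, were measured alongside, and their changes are given as log2 fold changes. REST itself averaged 66.5 ± 0.416 CPM with dBRD9-A and 66.6 ± 3.05 CPM with DMSO. It averaged 54.8 ± 3.03 CPM with hairpin shSS18-SSX1-1 and 49.1 ± 2.91 CPM in shSS18-SSX1-2 libraries, against 49.0 ± 8.92 CPM with shRenilla (SD, n = 3 each), and passed in neither experiment. Of 12 tested genes of REST and its corepressors, 1 rose and 4 fell with dBRD9-A, and 1 rose and 3 fell with knockdown. For these and the lists that follow, the shares over all genes with dBRD9-A were 17.7% rising and 18.2% falling (35.9% together). With knockdown they were 22.5% rising and 22.1% falling (44.6% together). A share near these is no result about a list. The lists were chosen with earlier results of these data known, so a share far from those over all genes is no test of a list either. RCOR2 changed by -0.34 with dBRD9-A and KDM1A by -0.30 with knockdown, on the log2 scale.

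Of 15 tested vesicle and active zone genes, 10 rose and 1 fell with knockdown. SLC17A7, the vesicular glutamate transporter of excitatory neurons, averaged 53.3 ± 2.58 CPM in shSS18-SSX1-1 libraries and 40.4 ± 2.13 CPM in shSS18-SSX1-2 libraries, against 6.85 ± 0.335 CPM with shRenilla (SD, n = 3 each). Its log2 fold change was 2.76. BSN, which encodes the active zone scaffold bassoon, rose by 1.40 and VAMP1 by 0.79. With dBRD9-A, 3 of 14 rose and 3 fell, among them SYNGR3 at 0.53 with overlapping groups and SV2A at -0.42. SYNGR3 was not the largest rise, since 1 gene of the list rose past 1.5-fold. The highest log2 fold change in the list was 1.05. Of the neurite cytoskeleton genes, 4 of 14 rose and 6 fell with knockdown, and 3 of 14 rose and 2 fell with dBRD9-A. MAP1A, a microtubule-associated protein, rose by 1.78 with knockdown and by 0.60 with dBRD9-A. PRPH, the peripheral neuronal filament peripherin, rose by 1.62 and STMN1 fell by 0.80 with knockdown.

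Among neurogenic transcription factors, 1 of 6 tested rose and 4 fell with knockdown, with PHOX2A at 2.14, NEUROD2 at -1.77 and POU3F2 at -1.50. With dBRD9-A, 1 of 5 rose, DLX2 at 0.31, and MYT1L fell by 0.47. Of 10 postsynaptic genes, 1 rose and 4 fell with knockdown, and 2 rose and 4 fell with dBRD9-A, beside 44.6% of all genes passing in either direction with knockdown and 35.9% with dBRD9-A. The kainate receptor gene GRIK3 fell by 1.02 with knockdown and rose by 0.40 with dBRD9-A, and SHANK2 fell by 0.53 with knockdown and rose by 0.69 with dBRD9-A. GRIK3 and SHANK2 do not stand for the list, in which 4 genes fell in each experiment. Past 1.5-fold, 3 of the list fell with knockdown, where the lowest log2 fold change was -1.36, and 1 rose with dBRD9-A. VGF was the sole tested granule gene with knockdown and rose by 0.97.

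**Figure D3:**
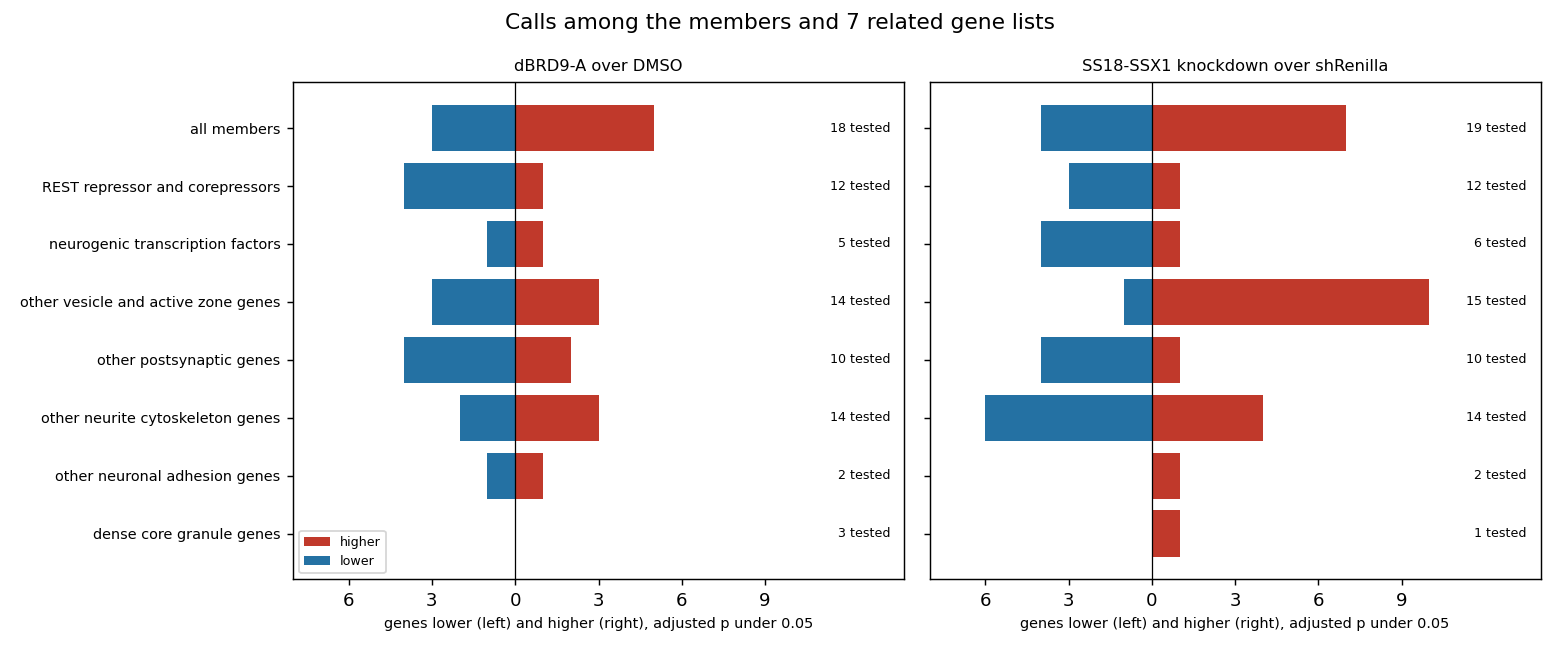
Numbers of genes lower (left of 0) and higher (right of 0) at an adjusted p under 0.05 among the members and 7 related lists, with the number tested at the right. With knockdown 10 of 15 vesicle and active zone genes rose and 1 fell, against 3 of 14 rising and 3 falling with dBRD9-A.

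Markers of neural and glial cells also moved with knockdown. The summed level of 7 neuronal markers was 58.0 to 62.4 CPM in shSS18-SSX1-1 libraries and 47.5 to 48.5 CPM in shSS18-SSX1-2 libraries, against 18.3 to 23.5 CPM with shRenilla, nearly all of it SLC17A7 and RBFOX3. RBFOX3, the nuclear antigen NeuN, had a log2 fold change of 0.93 with dBRD9-A and of -0.90 with knockdown, both past the test. These 2 were the only tested markers of the 7. With knockdown SLC17A7 rose and RBFOX3 fell, so the higher sum reflects SLC17A7 and not the whole list. Of 6 neural progenitor markers, NES, PAX6 and MSI1 were tested. PAX6 and MSI1 fell with knockdown, at log2 fold changes of -0.99 and -1.17, and none of the 3 but NES passed with dBRD9-A. The summed level of the 6, mostly NES, was 62.2 to 64.0 CPM with dBRD9-A and 66.8 to 68.6 CPM with DMSO. It was 129 to 134 CPM with shSS18-SSX1-1 and 120 to 134 CPM with shSS18-SSX1-2, against 96.9 to 175 CPM with shRenilla. The summed level of 6 astrocyte and oligodendrocyte markers was low but higher with knockdown. It was 0.633 to 0.987 CPM in shSS18-SSX1-1 libraries and 1.16 to 1.90 CPM in shSS18-SSX1-2 libraries, against 0.0381 to 0.0965 CPM with shRenilla. Only 1 of the 6 had enough counts for a test with knockdown, and it rose by 4.06 on the log2 scale. The sum therefore does not show a rise of the whole set. S100B, a Schwann cell and glial marker, averaged 1.94 ± 0.263 CPM in shSS18-SSX1-1 libraries and 1.70 ± 0.396 CPM in shSS18-SSX1-2 libraries, against 0.0725 ± 0.0258 CPM with shRenilla (SD, n = 3 each), while SOX10 stayed at or near 0. S100B and SOX10 belong to a list of 4 Schwann and neural crest markers. With knockdown 2 of the 4 were tested, and 1 rose by 4.56 on the log2 scale. The other, at 0.25, did not pass. With dBRD9-A 1 was tested and rose by 0.86. The summed level of the 4 was 5.24 to 6.77 CPM with shRenilla, so S100B was a small part of it there. The part of these markers in the results above was not tested.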

How the data were processed

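RNA-seq libraries of HSSYII cells in 5 groups of 3 were used. Per the submitters' processing notes and the methods, the authors aligned 75-base reads with STAR to GRCh37 (hg19), and counted them with featureCounts. The deposited values are raw counts for each transcript. No source used here gives tool versions or the strand setting. The methods name spike-in controls, but 0 rows hold one. In dBRD9-A replicate 2, 4535 rows carry a broken symbol before the deposited count, and the last word of that mixed, other column was read as the count. Symbols turned into dates were restored in 78 of 80 rows.

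Of 48104 transcript rows, the row with the highest total was kept for each of 25681 genes. Genes passing filterByExpr (minimum count 10) were tested by edgeR 4.0.16 quasi-likelihood in R 4.3.3 with TMM scaling and Benjamini-Hochberg adjustment over all genes, within 6 or 9 libraries, or 15 for the difference of effects. SEs are the log2 fold change over the square root of F. Values per library are printed for members past 1.5-fold, log2 fold changes for others that passed, and up to 3 genes of at least 1 CPM for other lists. Members and lists were chosen with earlier results of these data known. The script was tested on simulated data. DESeq2 1.42.0, voom with limma 3.58.1, further scalings, no filter, summed rows, a replicate block, a shift of 0.2 and leaving out each library were tried as alternatives. Gene locations are from GENCODE 44 on GRCh37.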

Additional observations from a re-analysis of the deposited data

Results flagged for a closer look

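INA differed between the 2 hairpins. The log2 fold change with shSS18-SSX1-2 exceeded that with shSS18-SSX1-1 by 1.13 in a direct test of the difference (SE 0.115, adjusted p = 0.000783 by edgeR). The 3 shSS18-SSX1-2 libraries, at 25.3 to 29.8 CPM, all lay above the 3 shSS18-SSX1-1 libraries, at 11.1 to 14.3 CPM. The adjusted p ranged over 10 alternatives between 0.000326 and 0.0172.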

How the results depend on the processing

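In the dBRD9-A comparison, a fit of all 15 libraries with 1 shared spread left 4 members passing, 2 of them higher, against 8 and 5 in the fit of 6 libraries, with MAP2, TUBB3, NPTXR and NES lost. A shift of every value by 0.2 gave 3 higher and 7 lower, and STMN3 then passed at a log2 fold change of -0.19. Leaving out each library gave 3 to 6 higher members with dBRD9-A and 6 to 11 with knockdown. The number passing between the hairpins was 1 or 2, the second being NPTX1 without shRenilla replicate 1 or 2. Of 288 member values with dBRD9-A, 267 kept their side of the threshold, of 342 with knockdown 333, of 190 between the hairpins 188 and of 460 for the difference of effects 456. NPTX1 and NTSR1 kept direction and call in both experiments under all of these.

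With the replicate number as a block (replicate block), 8 members passed with dBRD9-A and 10 with knockdown, where NLGN2 was lost. The deviations of same-numbered libraries correlated at -0.0512 to 0.0173 between dBRD9-A and DMSO, at -0.395 to -0.257 between shSS18-SSX1-1 and shRenilla, at -0.0564, 0.338 and 0.176 between shSS18-SSX1-2 and shRenilla, and at -0.399 to 0.151 between the hairpins. In no pair of groups were all 3 above 0.1, so the numbers were not used to pair the libraries. Members under about 10 counts a library were outside the main test, and the intervals given for them hold counting error only. Without the filter, NEFL passed with dBRD9-A at a log2 fold change of 1.60 (adjusted p = 0.0258 by edgeR). CNTN1 passed with knockdown at 2.42 (adjusted p = 0.000395 by edgeR). The other members outside the main test did not pass without the filter in either experiment. Beyond NEFL and CNTN1, other settings brought in NRXN2 and MAPT. NRXN2 passed with dBRD9-A when rows were summed (log2 fold change 1.09, adjusted p = 0.0154 by edgeR). It also passed without dBRD9-A replicate 3 (1.25, adjusted p = 0.0488 by edgeR). MAPT passed with knockdown without shRenilla replicate 2 (-1.13, adjusted p = 0.0234 by edgeR).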
